A study of Gallus gallus with 8 samples.

Results

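In total, 230 open chromatin regions of chicken retinal pigment epithelium (RPE) were closed to a low level, but not to zero, after the neural retina was removed and fibroblast growth factor 2 (FGF2) was supplied. They were selected on measured values out of 89824 open regions, of which 83389 lay on chromosomes 1 to 28 and were at most 5000 bp wide. A region was kept if its log2 fold change, treated over untreated with 1 added to each group mean, was -1.5 or lower at both stages. Its log2 difference between stages also had to stay within 1 unit in the treated and in the untreated RPE. Finally, its mean had to be at least 100 normalized read counts over the 4 RPE libraries and under 50, yet at least 2% of the RPE mean, over the 4 treated libraries. Every contrast between the groups was therefore used in the choice, and the levels and fold changes given here are a description of the chosen regions. Closed here means only that these limits were met, and members kept up to 33.9% of their RPE mean.

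RPE sheets of chicken embryos in 4 groups were assayed by ATAC-seq, a method that reads out accessible DNA through the insertion of adapters by Tn5 transposase. The treated groups, E5 6hPR+FGF2 and E4 6hPR+FGF2, were collected 6 hours after retinectomy, the surgery that takes out the neural retina, at embryonic day 5 (E5) or 4 (E4), with FGF2 delivered on heparin beads. The untreated groups were developing E5 RPE and E4 RPE with the neural retina in place. Each group held 2 libraries, each made from the RPE of 2 embryos, and the sex of the embryos was not stated. Retinectomy without FGF2 was not analysed here, so the effects of surgery, of FGF2 and of the 6 hours that passed cannot be told apart. All values come from pooled tissue, in which fewer cells with an open site and less opening per cell cannot be told apart. The libraries held 25233633 to 72884966 reads in open regions, and the 2 E5 6hPR+FGF2 libraries were the shallowest.

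The RPE is the pigmented layer behind the neural retina, and it recycles visual pigment, engulfs shed photoreceptor tips and shields the retina from light. Its identity is held by transcription factors such as MITF and OTX2, which bind enhancers and promoters of pigment genes. Open regions are stretches where nucleosomes give way to such factors. In the chick embryo, RPE at E4 can turn into neural retina when FGF2 is supplied after retinectomy, and this ability is lost by E5.

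The 230 regions had a mean of 4.32 to 49.8 normalized read counts over the 4 treated libraries (median 31.8) and of 101 to 2087 over the 4 RPE libraries (median 154). The median region kept 20.2% of its RPE mean after treatment, and the whole range ran from 2.02% to 33.9%. Regions that failed only the limit on the treated mean kept a median of 25.5%. Library by library, the median over the regions was 31.2 and 28.9 normalized read counts in E5 6hPR+FGF2 and 29.7 and 29.0 in E4 6hPR+FGF2, against 180 and 165 in E5 RPE and 128 and 151 in E4 RPE. By these medians the treated libraries shared a similar low level. This follows in part from the limits on the treated mean and on the stage difference. Among the untreated libraries, E4 RPE library 1 was the lowest. Ranked among all regions on chromosomes 1 to 28, the treated means stood at percentiles 0.343 to 12.9 (median 5.94), and the RPE means of the same regions at percentiles 34.7 to 93.7 (median 48.7). A typical member was therefore an open region of middling strength in RPE. That it was among the weakest in treated tissue follows from the limit of 50 on the treated mean.

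**Figure D1:**
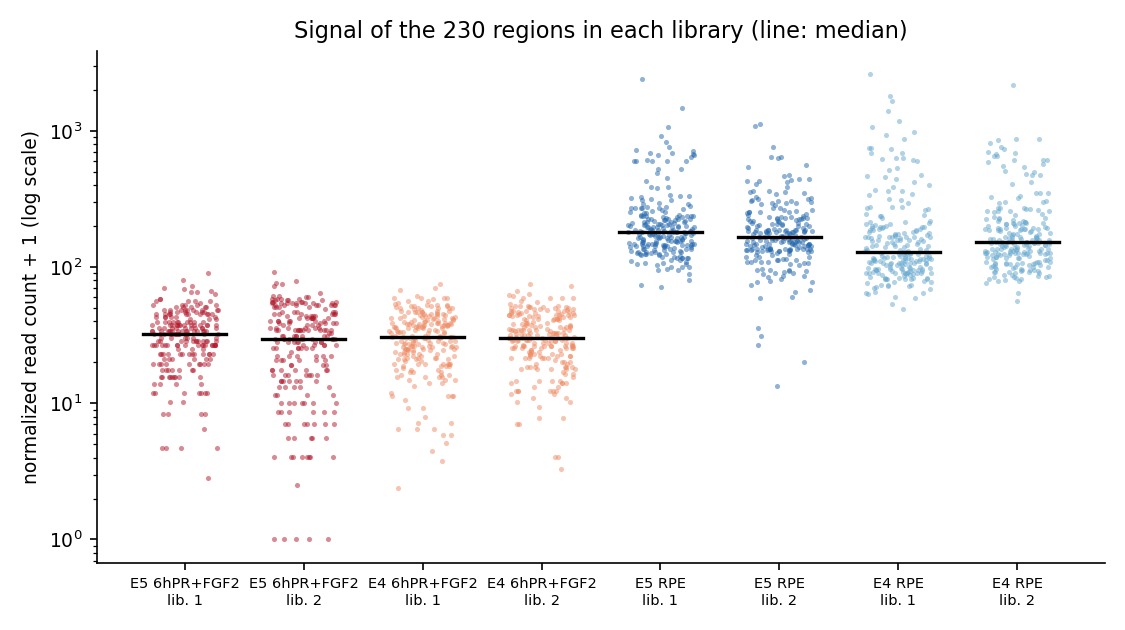
Normalized read count plus 1 (log scale) of the 230 regions in each of the 8 libraries, 1 point per region, with the median as a line. The medians lie between 28.9 and 31.2 in the treated libraries and between 128 and 180 in the RPE libraries, before 1 was added, and 5 regions sit at 0 in E5 6hPR+FGF2 library 2.

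The low level rested on few reads. Reads per region, recovered from the deposited values, had a median of 17.0 and 19.0 in E5 6hPR+FGF2 and 43.0 and 38.0 in E4 6hPR+FGF2, against 254 and 198 in E5 RPE and 90.5 and 185 in E4 RPE. The 4 treated libraries together held 18 to 216 reads per region (median 122). A count of 0 was found for 5 regions in E5 6hPR+FGF2 library 2 and for none in the other 7 libraries. A count of 0 allows up to 3 reads, or 4.56 normalized read counts in that library, and this limit covers counting error only. The region with the lowest treated mean, chr3:3226130-3226390, had 3.67 and 3.04 normalized read counts in E5 6hPR+FGF2 and 8.28 and 2.29 in E4 6hPR+FGF2, against 134 and 147 in E5 RPE and 206 and 210 in E4 RPE. None of these treated values was 0, but the rule had excluded a treated mean of 0. The E5 6hPR+FGF2 values lay below 5.51 and 4.56, the worth of 3 reads in libraries 1 and 2.

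The median log2 fold change was -2.47 at E5 and -2.06 at E4, where all regions on chromosomes 1 to 28 had medians of -0.03 and -0.04. Regions that failed only the limit on the treated mean had medians of -2.09 and -1.77. The fall was deeper at E5 in 156 of the 230 regions (67.8%), beside 49.2% of all regions on chromosomes 1 to 28. The share was 68.9% in the regions that failed only the limit on the treated mean, so it did not set the members apart from these. By the mean of both log2 fold changes, it was 44.1% in members below -4 and 37.9% between -4 and -3. It was 76.6% between -3 and -2 and 79.5% above -2. In the limma fit over all regions, which used the contrasts of the rule, 225 members were called lower in E5 6hPR+FGF2 than in E5 RPE, beside 19.3% of all regions. At E4, 216 members were called lower in E4 6hPR+FGF2 than in E4 RPE, beside 9.53% of all regions. Both stages were called in 215 members, where the rule had asked for a fall at both. The E4 count was 141 without E4 RPE library 2. All 4 treated libraries lay below all 4 RPE libraries in 225 members (97.8%), beside 15.9% of all regions. The share was 99.4% in the regions that failed only the limit on the treated mean. It was 100% in those that failed only the lower limit of 2%. Such separation thus follows largely from the limits on fold and level, and did not set the members apart. No member was called for a difference between the stages in the effect of treatment (interaction, 0.00223% of all regions called), with 21 at an unadjusted p under 0.05 in limma and 0 calls by edgeR and by DESeq2, which gave 104 members no adjusted p. Likewise no member was called between E5 RPE and E4 RPE (4.16% of all regions; 39 members at an unadjusted p under 0.05; 1 call by edgeR, 5 by DESeq2, 1 by limma with the replicate number as a block). Between E5 6hPR+FGF2 and E4 6hPR+FGF2 no member was called either (4.60% of all regions; 22 members at an unadjusted p under 0.05; 0 calls by edgeR and by DESeq2, 1 by limma with the block). The shares of all regions given beside counts of calls are of adjusted calls in the limma fit without the block. They are therefore no measure for counts at an unadjusted p, nor for calls by edgeR, by DESeq2 or with the block. For those, for the calls at both stages and for the count without a library, no share of all regions is given. The rule had limited both stage differences to under 1 log2 unit.

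**Figure D2:**
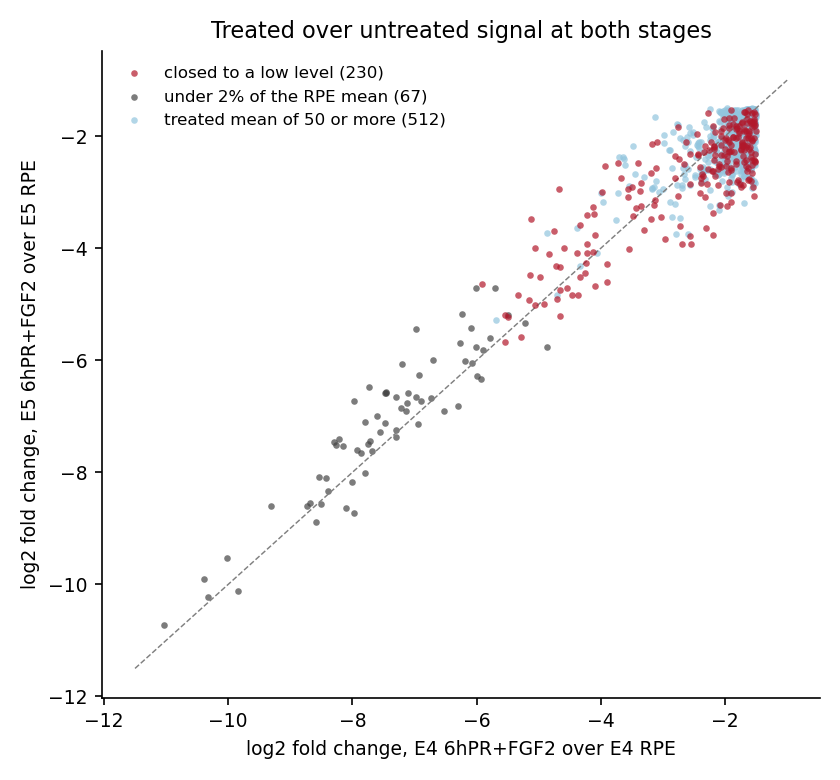
Log2 fold change of treated over untreated RPE at E5 (vertical) against E4 (horizontal), 1 point per region, for the 230 closed regions, the 67 that kept under 2% of the RPE mean and the 512 with a treated mean of 50 or more; the dashed line marks equal change. The closed regions reach from -1.53 to -5.67 at E5 and from -1.505 to -5.91 at E4.

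Because the rule used every library, it was also applied to the 4 libraries numbered 1 alone and to the 4 numbered 2 alone, and the fold changes were read in the libraries left aside. The 196 regions chosen on libraries 1, of which 124 were members, had a median log2 fold change of -2.35 at E5 and -2.0 at E4 in libraries 2 (-2.46 and -2.04 in libraries 1), beside -0.02 at either stage over all regions. Treated signal was lower in 194 of them at E5 and in 196 at E4, and 124 passed -1.5 at both stages, against 2.57% of all regions. The 302 regions chosen on libraries 2, of which 116 were members, had medians of -2.23 at E5 and -1.38 at E4 in libraries 1 (-2.31 and -1.94 in libraries 2), beside -0.05 at either stage over all regions. Of these, 110 passed -1.5 at both stages, against 1.82% of all regions. In these 2 sets, which only partly overlap the members, the fold at E5 was nearly as large in the libraries left aside. The E4 fold of regions chosen on libraries 2 was smaller in libraries 1. The limits of the rule were chosen with earlier results of these data known, so this is no independent check of the members.

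**Figure D3:**
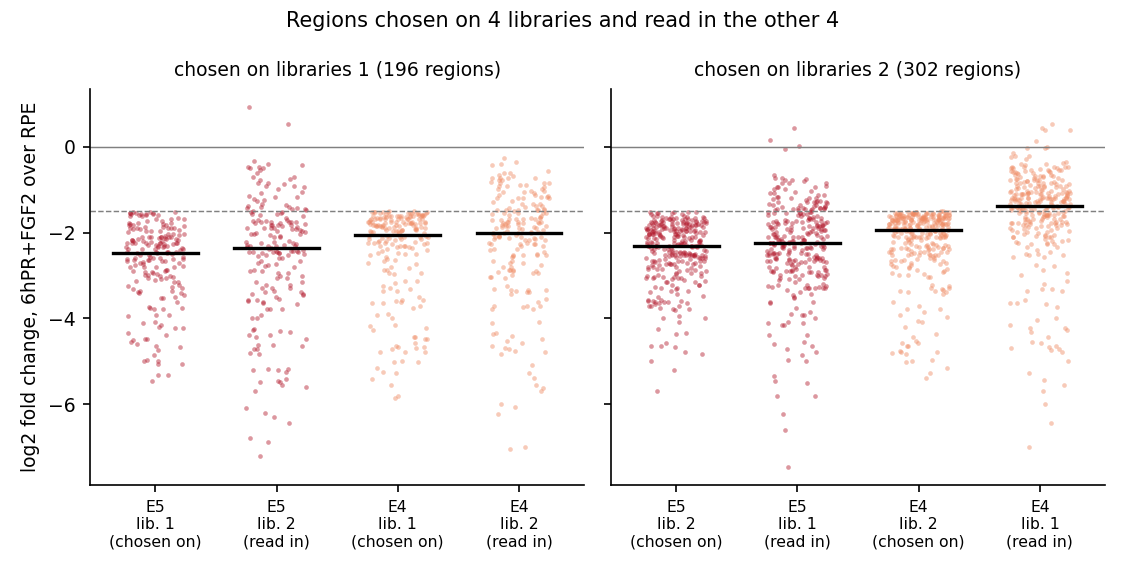
Log2 fold change of 6hPR+FGF2 over RPE at E5 and at E4 for regions chosen on 1 library per group and read in the other, with medians as black lines; the dashed line is the threshold of -1.5. Regions chosen on libraries 1 (left, 196) have medians of -2.35 at E5 and -2.0 at E4 when read in libraries 2, and those chosen on libraries 2 (right, 302) have -2.23 and -1.38 when read in libraries 1.

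Of the 6 members with the highest RPE mean, 3 were also among the 6 with the lowest mean fold change. The highest RPE mean belonged to chr1:162256850-162258250 (1400 bp), with 47.8 and 19.8 normalized read counts in E5 6hPR+FGF2 and 42.8 and 58.8 in E4 6hPR+FGF2, against 2410 and 1131 in E5 RPE and 2621 and 2188 in E4 RPE. Its log2 fold changes were -5.67 at E5 and -5.54 at E4, the lowest mean change of any member. It kept 2.02% of its RPE mean, and so lay just inside the lower limit of the rule.

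The next was chr24:6362510-6363130, with 25.7 and 42.5 in E5 6hPR+FGF2 and 20.0 and 35.1 in E4 6hPR+FGF2, against 1483 and 1090 in E5 RPE and 1805 and 854 in E4 RPE. The widest member, chr3:56641910-56646510 (4600 bp), had 33.1 and 13.7 in E5 6hPR+FGF2 and 34.5 and 19.8 in E4 6hPR+FGF2, against 1071 and 762 in E5 RPE and 1669 and 867 in E4 RPE. Its nearest open region, 4260 bp away, changed the other way, by 1.27 at E5 and 0.66 at E4 on the log2 scale.

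The 6 strongest members were completed by chr27:1542800-1544070, chr4:23858580-23858820 and chr1:128394480-128395190, with RPE means of 905, 812 and 788. On chromosome 27 the 2 E5 6hPR+FGF2 libraries differed widely, at 62.5 and 6.08 normalized read counts. On chromosome 4 the E4 RPE libraries stood at 1396 and 607. The second site on chromosome 1 had the tightest replicates of the 6, with 22.0 and 21.3 in E5 6hPR+FGF2 and 38.0 and 29.0 in E4 6hPR+FGF2, against 724 and 630 in E5 RPE and 989 and 809 in E4 RPE. In each of the 6 the treated and untreated libraries were far apart, and no treated library exceeded 62.5 normalized read counts.

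**Figure D4:**
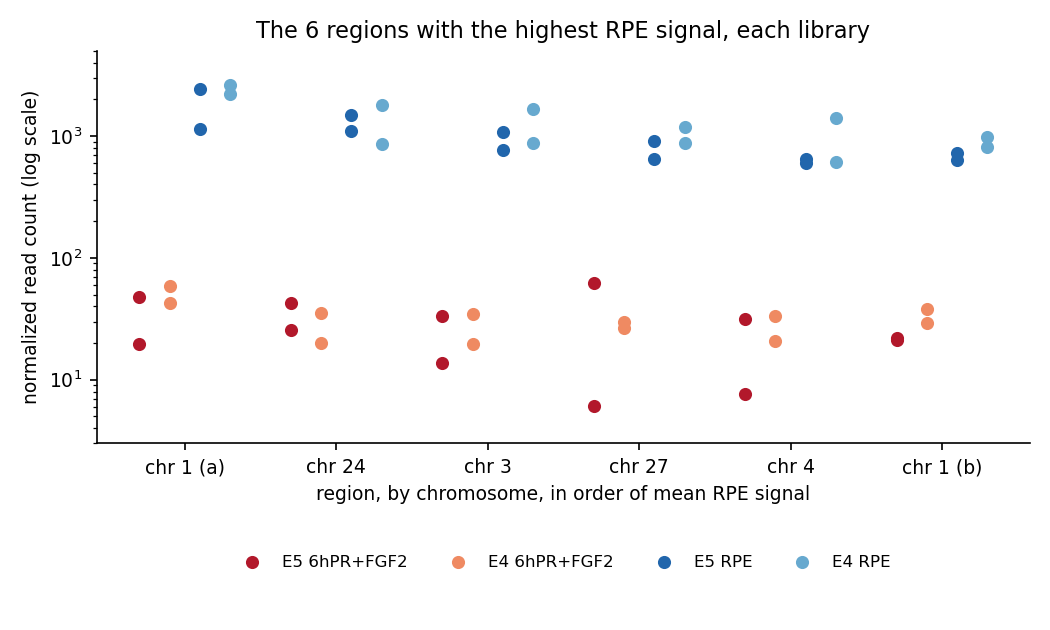
Normalized read count (log scale) in every library for the 6 regions with the highest RPE mean, named by chromosome, with 2 points per group. Treated libraries lie between 6.08 and 62.5 and RPE libraries between 600 and 2621.

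The 6 members with the lowest mean fold change included 3 further sites. At chr27:3850430-3850930 the values were 18.4 and 3.04 in E5 6hPR+FGF2 and 18.6 and 11.4 in E4 6hPR+FGF2, against 646 and 474 in E5 RPE and 638 and 613 in E4 RPE. At chr18:11158660-11159050 they were 11.0 and 3.04 in E5 6hPR+FGF2 and 5.52 and 3.05 in E4 6hPR+FGF2, against 224 and 175 in E5 RPE and 363 and 272 in E4 RPE. This site had no other open region within 25 kb. At chr10:725110-725510 they were 3.67 and 19.8 in E5 6hPR+FGF2 and 11.0 and 9.92 in E4 6hPR+FGF2, against 454 and 269 in E5 RPE and 619 and 305 in E4 RPE. Here the nearest open region had log2 fold changes of -6.44 at E5 and -6.68 at E4.

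The depth of the fall varied widely within the set. The mean of both log2 fold changes was below -4 in 34 members, between -4 and -3 in 29, between -3 and -2 in 94 and above -2 in 73. These bounds were set after the values were seen. The median RPE mean was 479, 230, 152 and 135 normalized read counts in these 4 spans, and the median treated mean 16.5, 19.3, 31.0 and 38.1. The median share kept was 3.79%, 9.69%, 19.9% and 27.5%, beside 25.5% in the regions that failed only the limit on the treated mean. Members above -2 thus kept a share close to that of those regions. Per 100 bp of width the treated mean had a median of 2.44 in the deepest span and 8.71 in the shallowest, and the RPE mean 69.2 and 31.4. Deeper falls thus came with more RPE signal as well as less treated signal, an order that follows in part from the limits of the rule.

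The 2 libraries of E5 RPE, whose ratio the rule did not use, differed along this range. Library 2 was below library 1 in 31 of 34 members below -4 and in 25 of 29 between -4 and -3, against 40 of 94 between -3 and -2 and 39 of 73 above -2. The median log2 ratio of library 2 over library 1 was -0.61, -0.57, 0.08 and -0.01 in these spans. Library 2 was also below library 1 in 63 of the 67 regions that passed every other criterion but kept under 2% of the RPE mean, in 213 of the 512 whose treated mean was 50 or more, and in 54.8% of all regions on chromosomes 1 to 28. In E4 RPE, library 2 was below library 1 in 20 of 34, 14 of 29, 28 of 94 and 20 of 73 members of the 4 spans. It was so in 48 of the 67 under 2%, in 94 of the 512 at 50 or more and in 48.3% of all regions.

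Set against all 4 RPE libraries, which also brings in the stage difference and the RPE mean that the rule used, the order was as follows. E5 RPE library 2 was the lowest of the 4 RPE libraries in 29 of 34 members below -4 and in 22 of 29 between -4 and -3, but in 17 of 94 between -3 and -2 and in 9 of 73 above -2. In the deepest span its median level was 0.681 of the region's RPE mean, against 1.10 for E5 RPE library 1, 1.15 for E4 RPE library 1 and 1.05 for E4 RPE library 2. In the shallowest span E4 RPE library 1 was the low one, at 0.787 of the mean, and it was the lowest in 45 of 73 members. E5 RPE library 2 was the lowest in 53 of the 67 regions under 2%, and E4 RPE library 1 in 370 of the 512 kept at 50 or more.

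The depth of the fall was also set against replicate ratios with no library shared between both measures. Across the 230 members the log2 fold change at E4 had a Spearman correlation of 0.40 (Pearson 0.40) with the log2 ratio of library 2 over library 1 in E5 RPE, and of 0.38 (Pearson 0.37) with that ratio in E5 6hPR+FGF2. The log2 fold change at E5 gave 0.20 (Pearson 0.23) with the ratio in E4 RPE and 0.02 (Pearson 0.01) with the ratio in E4 6hPR+FGF2. These are descriptions across regions that share the same 8 libraries and are not replicates. They were computed over the members only, so whether they are particular to the members is not known. The rule limited both stages together, so sharing no library does not free these values from the choice. E5 6hPR+FGF2 library 2 was also low in the deep members, with a median of 0.573 of the treated mean below -4 and 1.12 above -2. The part that these library differences have in the depth of the fall was not tested. With E5 RPE library 2 left out, the rule gave 222 regions, of which 199 were members.

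**Figure D5:**
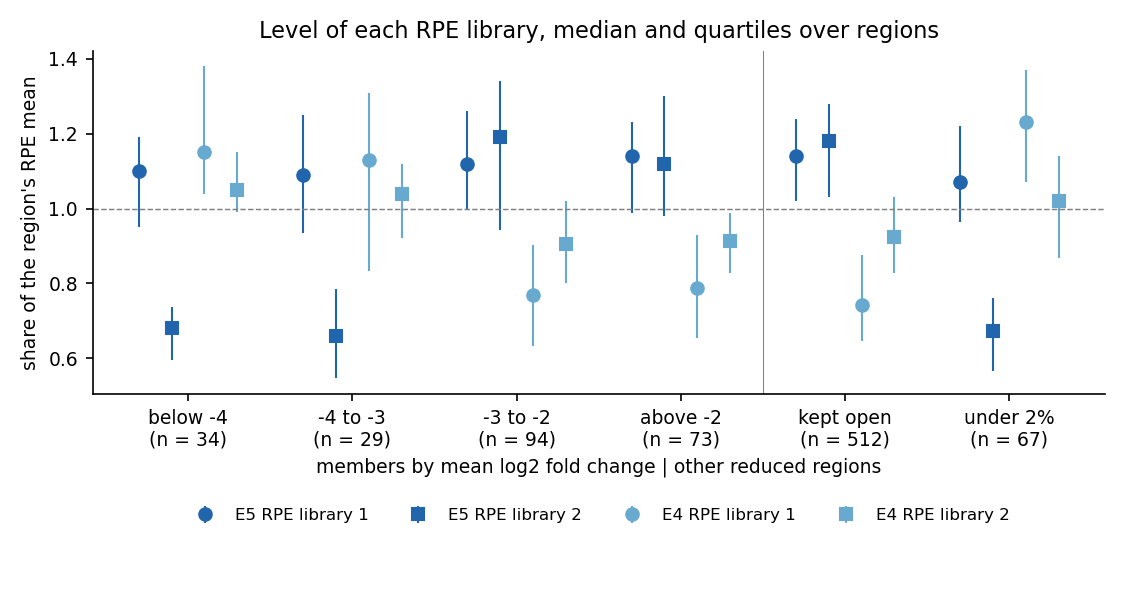
Level of each RPE library as a share of the region's mean over the 4 RPE libraries, as median and quartiles over regions, for members grouped by their mean log2 fold change and for the 2 other reduced sets. E5 RPE library 2 (dark squares) is low, at 0.681, 0.659 and 0.672, in the 2 deep spans and in the set under 2%, and E4 RPE library 1 (light circles) is low, at 0.769, 0.787 and 0.742, in the others.

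The stage level, which the rule limited, also differed between the spans. E5 RPE exceeded E4 RPE in 4 of 34 members below -4 and in 5 of 29 between -4 and -3, against 74 of 94 between -3 and -2 and 59 of 73 above -2. The share was 80.3% for the regions kept at 50 or more, 14.9% for those under 2% and 52.4% for all regions on chromosomes 1 to 28. In the deepest span E5 RPE library 1, at 1.10 of the RPE mean, lay between the E4 RPE libraries by its median, and E5 RPE library 2 was below both. In the 2 shallower spans both E5 RPE libraries lay above both E4 RPE libraries by their medians. Between -3 and -2 these were 1.12 and 1.19 against 0.769 and 0.905. Above -2 they were 1.14 and 1.12 against 0.787 and 0.914. The part of single libraries in the stage order was not tested.

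Position was not used by the rule beyond the choice of chromosomes. Sites within 1 Mb of the end of the stretch of their chromosome covered by open regions were 14 of the 34 below -4 (41.2%), 6 of 29 (20.7%), 7 of 94 (7.45%) and 0 of 73. The share was 11.7% for all members, 8.98% for the regions kept at 50 or more, 44.8% for those under 2% and 8.15% for all regions on chromosomes 1 to 28. Members below -4 thus lay near these ends in about the same share as the regions that were nearly emptied. Reads were aligned by the authors with several positions allowed per read, and the part of repeated sequence in these values was not tested.

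The members were mostly narrow. Their median width was 430 bp, against 900 bp for the regions kept at 50 or more, 460 bp for those under 2% and 530 bp for all regions on chromosomes 1 to 28. Counts were not divided by width, so a limit of 50 on the treated mean favours narrow regions. Only 11 of 230 members were wider than 1000 bp, and 9 of these had a mean change of -3 or lower. The narrowest member, chr1:172526480-172526680 (200 bp), had 18.4 and 0 in E5 6hPR+FGF2 and 2.76 and 11.4 in E4 6hPR+FGF2, against 136 and 59.2 in E5 RPE and 157 and 125 in E4 RPE.

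Members were found on 22 of the 28 chromosomes. Chromosomes 1 to 5 held 168 (73.0%), against 53.7% of all regions, 68.2% of those kept at 50 or more and 46.3% of those under 2%. From the deepest to the shallowest span the shares were 55.9%, 58.6%, 80.9% and 76.7%. There were 50 on chromosome 1 and 45 on chromosome 2, and none on chromosomes 17, 19, 23, 25, 26 and 28. The nearest open region lay a median of 3920 bp away (2340 bp for all regions), and 3 other regions lay within 25 kb (6 for all regions). These medians were 3545 bp and 4 for the regions kept at 50 or more, and 8660 bp and 2 for those under 2%. The nearest open region fell by at least 1 log2 unit at both stages in 41 members (17.8%). It did so beside 23.4% of the regions kept at 50 or more, 65.7% of those under 2% and 5.95% of all regions. For members from the deepest to the shallowest span the shares were 35.3%, 17.2%, 20.2% and 6.85%. Most members therefore lay beside a neighbour that did not fall by that much at both stages.

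Only 7 members lay within 10000 bp of another, in 3 runs. The densest was on chromosome 27, where 3 adjacent open regions between 2164180 and 2166300 were all members. The middle one, chr27:2165240-2165820, had 34.9 and 31.9 in E5 6hPR+FGF2 and 20.0 and 40.4 in E4 6hPR+FGF2, against 330 and 182 in E5 RPE and 400 and 299 in E4 RPE. The 3 sites differed in depth, with log2 fold changes at E5 of -1.58, -2.90 and -3.29 and at E4 of -2.27, -3.49 and -3.44.

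The 2 other runs lay within 1 Mb of the end of the covered stretch of their chromosome. On chromosome 15 the pair chr15:299620-299990 and chr15:308500-308930 had log2 fold changes of -4.83 and -2.57 at E5 and of -4.47 and -3.11 at E4. On chromosome 5 the pair chr5:182330-182740 and chr5:187060-187420 had -2.10 and -2.43 at E5 and -3.09 and -2.17 at E4. Between these lay chr5:186000-186520, no member, which was nearly emptied at 0 and 1.52 in E5 6hPR+FGF2 and 3.45 and 5.34 in E4 6hPR+FGF2, against 542 and 375 in E5 RPE and 747 and 321 in E4 RPE. Another, chr5:184640-184880, fell less, with log2 fold changes of -1.37 at E5 and -1.09 at E4. Partial and near-complete loss thus stood side by side in this stretch.

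The 4 members with the greatest difference between the stages in log2 fold change are described here, none of which was called in the interaction. These differences, E5 minus E4, were 1.73 at chr1:239050-239460 and 1.64 at chr15:13016590-13017420, where the fall was deeper at E4, and -1.57 at chr1:101648210-101648610 and -1.53 at chr2:19304230-19304690, where it was deeper at E5. The first had 27.6 and 28.9 in E5 6hPR+FGF2 and 15.9 and 13.7 in E4 6hPR+FGF2, against 241 and 207 in E5 RPE and 532 and 272 in E4 RPE. At chr2:19304230-19304690 the values were 22.0 and 9.12 in E5 6hPR+FGF2 and 31.7 and 28.2 in E4 6hPR+FGF2, against 124 and 152 in E5 RPE and 100 and 78.3 in E4 RPE. At neither site did the E5 and E4 libraries overlap, treated or untreated. Nor did they at chr15:13016590-13017420, with 55.1 and 28.9 against 20.7 and 23.7 treated, and 603 and 357 against 933 and 682 in RPE. At chr1:101648210-101648610 they overlapped in both. There E5 6hPR+FGF2 had 7.35 and 9.12 against 8.28 and 24.4 in E4 6hPR+FGF2, and E5 RPE 79.9 and 167 against 62.2 and 93.8 in E4 RPE. The 4 sites were picked for a large stage difference, so a lack of overlap between the stages follows in part from the choice. It is no test of that difference.

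Treated and untreated libraries overlapped in 5 members. The clearest case was chr2:94910560-94910910, with 1.84 and 25.8 in E5 6hPR+FGF2 and 4.83 and 20.6 in E4 6hPR+FGF2, against 214 and 12.5 in E5 RPE and 110 and 211 in E4 RPE. E5 RPE library 2 fell within the treated range there. The others were chr4:28886490-28886940, chr5:33950890-33951450, chr7:5862250-5862570 and chr7:18377130-18377770. In the second of these, on chromosome 5, E4 RPE library 1 was the low one, at 58.0 against 328 in library 2.

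The feature annotation published with the study covered 16 members, all on chromosome 1, as only part of that annotation was used here. By it 10 lay in introns, 4 between genes and 2 at transcript ends, and none at a promoter. None was nearest to a gene of the preset lists of pigment, neural retina, FGF response, mesenchyme, neural crest, blood, endothelium or lens genes. The labelled tissue could therefore not be checked against its marker genes on these regions. The strongest, chr1:57350-61520 at the end of a U2 small nuclear RNA gene (U2 is a core part of the spliceosome), had 27.6 and 34.9 in E5 6hPR+FGF2 and 40.7 and 54.9 in E4 6hPR+FGF2, against 666 and 433 in E5 RPE and 1068 and 766 in E4 RPE. U2 genes are repeated in vertebrate genomes, so its reads may be shared with other copies.

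An intergenic site, chr1:8410240-8410980, had its nearest start site at GRM3, which encodes a metabotropic glutamate receptor. Its values were 51.4 and 63.8 in E5 6hPR+FGF2 and 34.5 and 32.1 in E4 6hPR+FGF2, against 329 and 357 in E5 RPE and 170 and 190 in E4 RPE. Replicates were close, and the untreated level was higher at E5 than at E4. In an intron of SFMBT2, a Polycomb group gene, chr1:4601400-4601970 had 38.6 and 30.4 in E5 6hPR+FGF2 and 46.2 and 34.3 in E4 6hPR+FGF2, against 214 and 168 in E5 RPE and 143 and 92.1 in E4 RPE. The intergenic site chr1:26788770-26789210, nearest to the orphan receptor gene GPR85, had 47.8 and 13.7 in E5 6hPR+FGF2 and 13.8 and 33.6 in E4 6hPR+FGF2, against 156 and 168 in E5 RPE and 73.5 and 117 in E4 RPE.

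One weaker site was singled out after its values were seen. At chr1:110151360-110151600, in an intron of another gene, the nearest start site was that of BACE2, a protease that processes the melanosome protein PMEL in pigment cells. It had 25.7 and 31.9 in E5 6hPR+FGF2 and 24.8 and 25.9 in E4 6hPR+FGF2, against 127 and 87.5 in E5 RPE and 117 and 82.4 in E4 RPE. These are nearest start sites and not shown targets, and the other 11 annotated members had a nearest start site with no gene symbol.

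The set had soft borders. By the fold limit at E4, chr3:94640210-94640830 lay inside at -1.505 and chr2:127149290-127149830 outside at -1.498, and 233 regions failed that limit alone. At E5, chr1:52889490-52890000 lay inside at -1.527 and chr1:184431540-184431900 outside at -1.494, and 28 failed that limit alone. The treated limit parted 49.83 at chr2:82976580-82977150 from 50.08 at chr15:13010630-13011460, and the RPE limit parted 100.8 at chr1:101648210-101648610 from 99.78 at chr2:45054680-45055110. By the share kept, 2.025% at chr1:162256850-162258250 lay inside and 1.969% at chr25:2069320-2069780 outside. The stage limits parted 0.999 at chr2:115950960-115951440 from 1.000 at chr11:10151790-10152220 in RPE, and -0.998 at chr2:141022630-141023260 from -1.014 at chr6:991930-992570 in treated tissue.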

How the data were processed

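The authors made ATAC-seq libraries of embryonic chicken RPE in 4 groups of 2. Reads were trimmed with Trim Galore, aligned to GRCg6a with Bowtie2 with several alignments allowed per read, and cleared of duplicates (Picard). Regions called open in each library were merged with bedtools, counted with featureCounts and normalized with DESeq2. For tool versions and a Tn5 shift of reads: not given in the sources used here. The deposited signal is a normalized read count per region for each library, not pooled. Every value was a whole multiple of what 1 read is worth, within a tolerance of 1e-06, so reads could be recovered. The egg source differs between the labels and the study's methods. Coordinates were left as deposited, and their base (0 or 1) is unknown.

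Libraries were grouped by their labels, which do not say that the 2 of a group came from separate collections, so p-values measure only the spread between these libraries. The study's methods name each as RPE of 2 embryos. Any batch that went with treatment cannot be told apart from it. All 8 libraries were fitted together by limma (3.58.1, under R 4.3.3) with a mean-variance trend on log2(normalized read count + 1). This log-scale fit was the main one since the deposited values are normalized. Benjamini-Hochberg adjustment ran over 89824 regions, at 0.05. The 1 added shrinks folds of low regions, but where replicates differed the fitted fold could exceed that of the group means. At chr15:299620-299990 it was -5.71 at E5, against -4.83 from the group means. edgeR 4.0.16 and DESeq2 1.42.0 on recovered reads were alternatives, beside other pseudocounts (0.5 and 10), a minimum mean of 50, equal totals, quantile normalization, other limits of the rule, the replicate number as a block and each library left out. The scripts were tested on simulated data. Tables were handled with Python 3.11.15. Members, lists and tests were chosen with earlier results of these data known. Named were the 6 members of highest RPE mean, the 6 of lowest mean fold change and the 4 of largest stage difference. Also named were those nearest each limit, runs, and the widest and narrowest. Planned were up to 12 annotated ones by RPE mean, and those described are the 5 with a gene symbol at the nearest start site. No GRCg6a genome was used here, so sequences and the planned motif search are not given.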

Additional observations from a re-analysis of the deposited data

How the results depend on the processing

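The count of 230 regions depended most on the limits themselves. It was 66 with a treated limit of 25, 407 with 100, 491 with a fold threshold of -1 and 112 with -2, since each of these admits more or fewer regions by construction. With the 8 other settings it ran from 187 to 302, and with each library left out from 195 (without E5 6hPR+FGF2 library 1 or E5 RPE library 1) to 336 (without E4 RPE library 1). Of the 230 members, 124 were chosen again on libraries 1 alone and 116 on libraries 2 alone. Members called lower ran from 202 to 225 at E5 and from 141 to 224 at E4 with each library left out. The lowest E4 count was without E4 RPE library 2, and the cause was not tested. With the other settings the calls ran from 224 to 228 at E5 and from 210 to 225 at E4, with 226 and 224 by edgeR and 227 and 225 by DESeq2. The interaction called 0 members under all 16 alternatives, and DESeq2 gave no adjusted p for 104 members. Median log2 fold changes ran from -2.60 to -2.35 at E5 and from -2.20 to -1.96 at E4 with libraries left out, and were -2.18 and -1.78 with a pseudocount of 10. With the replicate number as a block, 228 members were called at E5, 221 at E4, 1 between the stages in RPE and 1 between the stages in treated tissue. Deviations of same-numbered libraries over all regions correlated at 0.334, 0.333 and 0.11 in 3 pairs of groups and at -0.053, -0.156 and -0.206 in the other 3. Over the members alone the correlations were positive in every pair but small, from 0.011 to 0.197. The labels give the numbers no shared meaning and the correlation over all regions was not positive in every pair. The numbers were therefore not taken to pair the libraries. Each group held 2 libraries, and the treated levels rest on a median of 17.0 to 43.0 reads a region and library, which limits how well they can be told apart.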
